A study of Homo sapiens with 8 samples.

Results

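The androgen-induced genes examined here were 39 genes outside the kallikrein family that androgen is known to switch on in prostate cells. They are named in a list of androgen-induced genes whose rule uses no signal of these arrays, and were found through the RefSeq accession of each probe. The list and its rule were, however, chosen with earlier results of these arrays known. All 39 were present on the array, with 45 probes, and 38 of them, with 44 probes, passed the filter on dim probes, among 28850 genes tested of 32511 on the array. LNCaP cells, a human prostate cancer line derived from a lymph node metastasis that responds to androgen, were transfected with 30 nM siGATA2, a single siRNA directed at GATA2, or with siControl, a scrambled siRNA. RNA was taken after 72 h and hybridised with a single dye to 8 Agilent arrays, of which 4 carry the label siGATA2 and 4 the label siControl, described as biological replicates. Both groups were kept in medium with fetal bovine serum. The labels name neither added androgen nor an androgen-free arm, so the arrays compare both siRNAs within that medium and do not measure the response to androgen itself.

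Androgen is a steroid hormone that switches genes on through enhancers, at which coactivators gather. In prostate cells many of these enhancers are opened by pioneer factors, of which FOXA1 and GATA2 are the best known. The genes androgen induces include secreted and surface proteins of the luminal cell, transporters, enzymes of lipid, sugar and cofactor metabolism, signalling proteins, and transcription and elongation factors. Several are also induced by the glucocorticoid receptor, a steroid receptor.

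Values are quantile-normalized log2 signals, so that a difference of 1 is a 2-fold change, and changes are log2 fold changes of siGATA2 minus siControl. The brightest probe stands for a gene. A gene was called lower or higher when the adjusted p of limma was under 0.05. The signal of GATA2, the targeted gene, was 12.61, 12.54, 11.57 and 11.40 on the siGATA2 arrays 1 to 4 and 11.74, 11.28, 11.10 and 11.29 on the siControl arrays 1 to 4. It was thus not lower on the arrays labelled siGATA2 (log2 fold change 0.68, standard error 0.31, adjusted p = 0.154), and every direction below rests on the labels. GATA2 was read by a single probe. By Western blot the study reports a marked loss of GATA2 protein in LNCaP cells given siGATA2. Protein was not measured on these arrays, and why the GATA2 signal was not lower was not tested.

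The arrays also fell into sets that the groups do not explain. Those whose titles carry the letter A or B, namely siGATA2 1 and 2 and siControl 1, stood apart from those with the letters D to G, namely siGATA2 3 and 4 and siControl 2 to 4. The SD of the difference between siGATA2 arrays over all genes tested was 0.25 for arrays 1 and 2 and 0.34 for arrays 3 and 4, but 0.71 to 0.75 across the sets. Array siControl 1 differed from siControl 2 and 4 by an SD of 0.78, while the latter differed from each other by 0.36. Array siControl 3 differed from the other siControl arrays by 0.90 to 1.02. It also had the fewest probes well above background, 24331 against 28501 to 36976 on the others. What the letters stand for is not given in the sources used here, and results are therefore also given with both sets as a block and within the D to G set. With the sets as a block GATA2 itself was called higher on the siGATA2 arrays, at 0.47 (adjusted p = 0.0261), and within the D to G set it was not called, at 0.26 (adjusted p = 0.105). The luminal markers KRT8, KRT18, EPCAM, FOLH1, HOXB13, KLK2 and KLK3 were well above background on all 8 arrays. Of them KLK2 (-1.84), KLK3 (-1.63) and HOXB13 (-0.40) were called lower, KRT8 (0.56) was called higher, and the others were not called. Among basal markers KRT5 did not pass the filter, and KRT14 (-0.99) and TP63 (0.40) passed and were not called. The fibroblast marker COL1A1 (-0.13) was well above background on all 8 arrays and DCN (-0.29) and COL1A2 (-0.21) on some, none of them called, while COL3A1 and LUM did not pass the filter. Of the leukocyte markers, PTPRC was called higher by 0.87 (adjusted p = 0.00138), at 8.81 to 9.11 on the siGATA2 and 7.98 to 8.35 on the siControl arrays, while a further PTPRC probe, at 0.59, and CD3E were not called. The part of these markers in the results was not tested.

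Of the 38 androgen-induced genes tested, 14 were lower (36.8%) and 4 were higher (10.5%) on the arrays labelled siGATA2, and 20 were not called. Over all genes tested the corresponding shares were 14.2% and 12.3%, or 26.5% in either direction, and 19.6% and 16.2% among genes with a symbol and a probe well above background on every array of a group. At least 2-fold changes were found in 10 genes that were lower and 3 that were higher, beside 7.13% and 4.52% of all genes. The 4 siGATA2 and 4 siControl values lay apart for the same 14 and 4 genes, and for 16.5% of all genes in the lower and 16.2% in the higher direction, or 32.6% in either. The log2 fold change was below 0 in 29 genes and above 0 in 9. Its median was -0.28 over the androgen-induced genes and 0.09 over all genes tested. Because the genes were picked with earlier results of these arrays known, no test of the list as a whole was made.

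**Figure D1:**
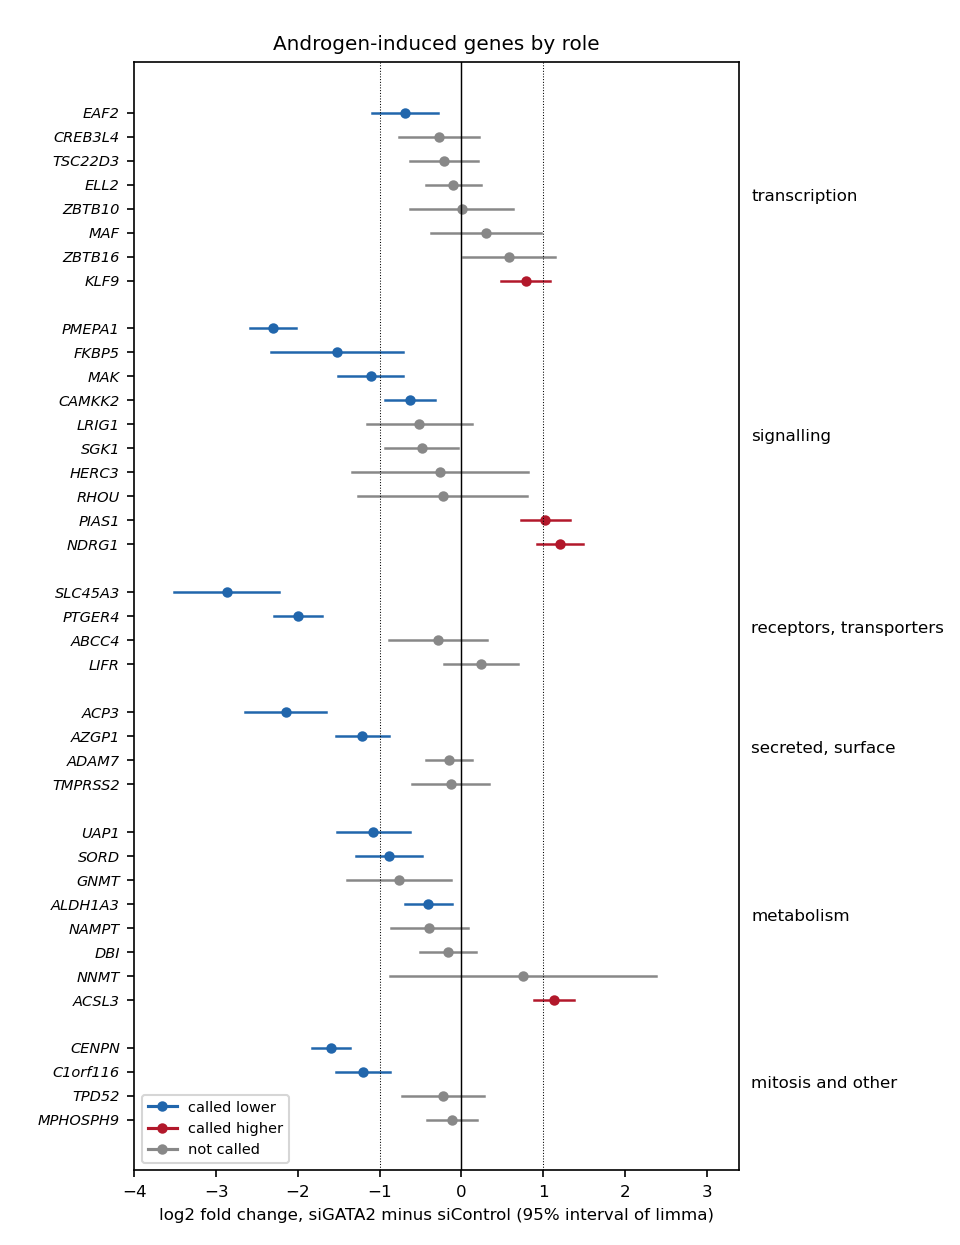
Log2 fold change of siGATA2 minus siControl (x axis) for the 38 androgen-induced genes tested, grouped by role, with bars for the 95% interval of limma and dotted lines at 2-fold. The 14 genes called lower reach from -0.40 for ALDH1A3 to -2.87 for SLC45A3, and the 4 called higher from 0.79 for KLF9 to 1.21 for NDRG1.

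Of 4 surface receptors and transporters, 2 were lower, and SLC45A3 had the largest fall of all androgen-induced genes. SLC45A3, or prostein, a largely prostate-restricted member of the SLC45 transporter family, had signals of 12.78, 12.56, 11.57 and 11.76 on the siGATA2 arrays 1 to 4 and of 14.94, 15.12, 15.19 and 14.92 on the siControl arrays. Every siGATA2 array lay under every siControl array, and the siGATA2 arrays of the D to G set lay lowest. SLC45A3 changed by -2.87 (standard error 0.28, adjusted p = 0.000212), or 7.32-fold. Within the D to G set it was -3.41 (adjusted p = 0.00035), and between the 2 siGATA2 arrays and the single siControl array of the A and B set it was -2.27, which has no test.

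PTGER4, the EP4 receptor for prostaglandin E2, was 7.82, 7.59, 7.63 and 7.83 on the siGATA2 arrays and 9.51, 9.92, 9.66 and 9.77 on the siControl arrays. Every siGATA2 array was lower than every siControl array. The log2 signal changed by -2.00 (standard error 0.13, adjusted p = 3.29e-05). The other two genes of this class were not called. ABCC4, a transporter that exports cyclic nucleotides and prostaglandins, had a log2 fold change of -0.29 (adjusted p = 0.446), and LIFR, the receptor for leukaemia inhibitory factor, one of 0.24 (adjusted p = 0.403). For ABCC4 the siGATA2 arrays 3 and 4, at 9.68 and 9.76, lay under all siControl arrays, at 10.31 to 10.65, while siGATA2 1, at 10.77, lay above them. Within the D to G set ABCC4 was called lower at -0.69 (adjusted p = 0.00329), but with the sets as a block, at -0.45, it was not (adjusted p = 0.0508).

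Of 4 secreted and surface proteins of the luminal cell, 2 were lower. ACP3, prostatic acid phosphatase, was 8.48, 8.20, 7.77 and 7.66 on the siGATA2 arrays and 10.53, 10.10, 10.09 and 9.97 on the siControl arrays, with no overlap. ACP3 changed by -2.15 (standard error 0.21, adjusted p = 0.000244), and a further ACP3 probe changed by -2.15 as well, in a table of all probes where 14.5% were lower and 12.5% higher. AZGP1, zinc-alpha-2-glycoprotein, a secreted protein that mobilises lipid, changed by -1.21 (standard error 0.14, adjusted p = 0.000522), from a mean of 11.72 ± 0.08 (SD, n = 4) in siControl to 10.51 ± 0.25 (SD, n = 4). ADAM7, a member of the ADAM family expressed in the epididymis, was dim, passing the background threshold on 3 of 4 siControl arrays, and its log2 difference of -0.15 was not called (adjusted p = 0.408).

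TMPRSS2, the androgen-induced surface protease whose promoter is fused to ERG in many prostate cancers, was not called. It was 15.15, 15.15, 14.52 and 14.59 on the siGATA2 arrays and 15.33, 14.99, 14.77 and 14.84 on the siControl arrays. The groups overlapped, and the arrays of the A and B set were the highest in both of them. The log2 fold change was -0.13 with a 95% interval from -0.60 to 0.34 (adjusted p = 0.665 from limma). With the sets as a block it was called lower at -0.27 (adjusted p = 0.0254), and within the D to G set at -0.32 (adjusted p = 0.0481). TMPRSS2 was not called in the other 23 of 25 alternatives.

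**Figure D2:**
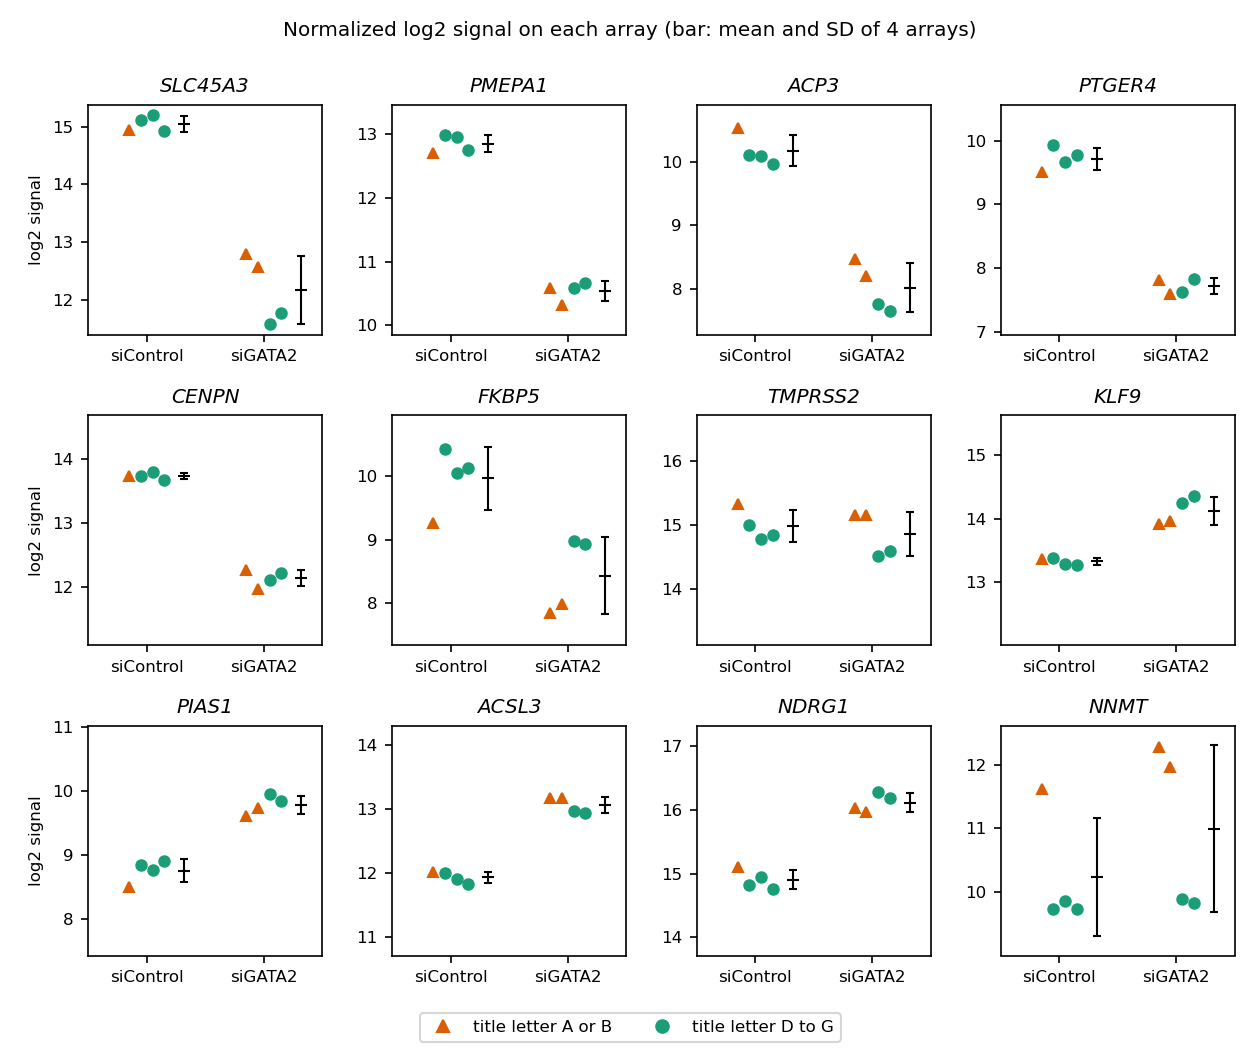
Normalized log2 signal (y axis) of 12 androgen-induced genes on each array of the siControl and siGATA2 groups, with bars for the mean and SD of 4 arrays and symbols for the title letters. SLC45A3, PMEPA1, ACP3, PTGER4, CENPN and FKBP5 are lower on every siGATA2 array than on any siControl array, KLF9, PIAS1, ACSL3 and NDRG1 are higher, TMPRSS2 overlaps, and NNMT follows the title letters.

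Among 10 chaperones, kinases, ligases and inhibitors of signalling, 4 were lower and 2 higher. PMEPA1, which binds NEDD4-type ubiquitin ligases and dampens TGF-beta signalling, was 10.59, 10.32, 10.59 and 10.66 on the siGATA2 arrays and 12.70, 12.97, 12.95 and 12.75 on the siControl arrays. The groups did not overlap on the arrays of either title letter set. PMEPA1 changed by -2.31 (standard error 0.12, adjusted p = 2.08e-05), a 4.95-fold difference, and a further PMEPA1 probe had a log2 fold change of -1.72 (adjusted p = 0.00025).

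FKBP5, an HSP90 co-chaperone of steroid receptors that is induced by androgen and by glucocorticoid, was 7.85, 7.99, 8.98 and 8.92 on the siGATA2 arrays and 9.25, 10.42, 10.04 and 10.12 on the siControl arrays. The groups did not overlap, and siControl 1, at 9.25, and siGATA2 3, at 8.98, were the nearest. FKBP5 changed by -1.52 (standard error 0.35, adjusted p = 0.0144). In both groups the A and B arrays were lower, by 1.03 in siGATA2 and by 0.94 in siControl, so that within the A and B set the difference was -1.33 and within the D to G set -1.24 (adjusted p = 0.0034). With slide row as a block the value was -1.41, which was not called (adjusted p = 0.0659).

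The kinases MAK and CAMKK2 were also lower. MAK, male germ cell-associated kinase, changed from 6.84 ± 0.34 (SD, n = 4) in siControl to 5.74 ± 0.05 (SD, n = 4), a log2 fold change of -1.11 (adjusted p = 0.0023). CAMKK2, the calcium-dependent kinase that activates AMPK, changed by -0.63 (standard error 0.13, adjusted p = 0.0105). SGK1, a kinase induced by steroid hormones, and LRIG1, an inhibitor of receptor tyrosine kinases, had log2 fold changes of -0.48 (adjusted p = 0.107) and -0.51 (adjusted p = 0.222), and both were called lower with the sets as a block, at -0.36 and -0.71. HERC3, a ubiquitin ligase, and RHOU, a small GTPase, were not called, with log2 fold changes of -0.26 and -0.23. Both were lower on the A and B arrays of either group than on the D to G arrays, with RHOU at 10.18 to 10.43 against 11.54 to 11.67.

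NDRG1 and PIAS1 went the other way. NDRG1, a stress-responsive protein also induced by hypoxia, was 16.02, 15.97, 16.28 and 16.18 on the siGATA2 arrays and 15.10, 14.82, 14.95 and 14.76 on the siControl arrays. It changed by 1.21 (standard error 0.12, adjusted p = 0.000266). PIAS1, a SUMO ligase that acts on steroid receptors and STAT proteins, was 9.60, 9.73, 9.94 and 9.84 on the siGATA2 arrays and 8.50, 8.84, 8.76 and 8.90 on the siControl arrays, a change of 1.03 (standard error 0.13, adjusted p = 0.000788). In both genes every siGATA2 array lay above every siControl array. When the E1A spike-in probes set the scale, the log2 fold changes were 0.45 and 0.49 and neither gene was called.

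Of 8 transcription and elongation factors, 1 was lower and 1 higher. EAF2, a partner of the ELL elongation factors, changed by -0.69 (standard error 0.17, adjusted p = 0.0212), and its signal on siControl 1, at 8.90, lay under the other siControl arrays, at 9.29 each. The call for EAF2 was lost in 7 of 25 alternatives, among them the omission of siGATA2 1 or 2 or of siControl 2, 3 or 4. KLF9, a Krüppel-like factor induced by glucocorticoid and thyroid hormone, was 13.91, 13.96, 14.24 and 14.36 on the siGATA2 arrays and 13.36, 13.39, 13.29 and 13.27 on the siControl arrays. It was higher without overlap, at 0.79 (standard error 0.13, adjusted p = 0.00285), but was at 0.10 and not called with E1A spike-in scaling.

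The other 6 genes of this class were not called. ELL2, an elongation factor of the super elongation complex, had a log2 fold change of -0.10, CREB3L4, a bZIP factor of the endoplasmic reticulum enriched in prostate, -0.28, and TSC22D3, the glucocorticoid-induced leucine zipper, -0.21. ZBTB10, a zinc finger repressor, was at 0.00. ZBTB16, the zinc finger protein PLZF, had a log2 fold change of 0.59 (adjusted p = 0.119), and MAF, a bZIP factor, one of 0.30 (adjusted p = 0.485). With the sets as a block CREB3L4 was called lower at -0.41, while ZBTB16 and MAF were called higher at 0.43 and 0.50. With E1A spike-in scaling ZBTB16 and MAF were below 0, at -0.09 and -0.26, and not called.

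Of 9 genes of lipid, sugar and cofactor metabolism, 8 passed the filter, and 3 of these were lower and 1 higher. UAP1, which makes UDP-N-acetylglucosamine for glycosylation, was 11.84, 11.57, 11.54 and 11.55 on the siGATA2 arrays and 12.14, 12.90, 12.87 and 12.89 on the siControl arrays, with siControl 1 under the rest of its group. UAP1 changed by -1.08 (standard error 0.19, adjusted p = 0.00475). SORD, sorbitol dehydrogenase of the polyol pathway, changed by -0.89 (standard error 0.18, adjusted p = 0.00735). ALDH1A3, which makes retinoic acid, changed by -0.40 (standard error 0.13, adjusted p = 0.0485), and its call was lost when any 1 of the 8 arrays was left out.

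ACSL3, an acyl-CoA synthetase of lipid droplets, was 13.18, 13.18, 12.98 and 12.95 on the siGATA2 arrays and 12.01, 12.00, 11.91 and 11.83 on the siControl arrays. All siGATA2 arrays were higher, by 1.13 (standard error 0.11, adjusted p = 0.000183), and with E1A spike-in scaling the value was 0.48 and not called. GNMT, which methylates glycine, was 8.89 to 8.97 on the siGATA2 arrays and 9.88 to 10.17 on 3 siControl arrays, but 8.83 on siControl 1. Its log2 fold change of -0.76 was not called (adjusted p = 0.0781), and without siControl 1 it was called lower at -1.06. NAMPT, the rate-limiting enzyme of NAD salvage, and DBI, the acyl-CoA-binding protein, had log2 fold changes of -0.39 and -0.16 and were not called.

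NNMT, nicotinamide N-methyltransferase, was 12.28, 11.96, 9.90 and 9.83 on the siGATA2 arrays and 11.62, 9.74, 9.86 and 9.74 on the siControl arrays. The 3 high arrays were those of the A and B set in both groups. Its log2 fold change was 0.75, with the largest standard error among the androgen-induced genes, 0.70 (adjusted p = 0.468), and within the D to G set it was 0.09 (adjusted p = 0.377). HPGD, which inactivates prostaglandin E2, did not pass the filter, with a mean of 2.92 over the arrays and a probe well above background on 2 of them. Its signals were 1.77, 1.95, 2.19 and 1.85 on the siGATA2 arrays and 2.72, 4.73, 3.72 and 4.46 on the siControl arrays. Without the filter it was called lower at -1.97 (standard error 0.41, adjusted p = 0.0112), a size that rests on signals near background.

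Of the remaining genes, 2 of 4 were lower. CENPN, a centromere protein that reads CENP-A nucleosomes and serves in mitosis, was 12.26, 11.97, 12.11 and 12.21 on the siGATA2 arrays and 13.73, 13.74, 13.80 and 13.67 on the siControl arrays. The spread within each group was small beside the gap, and CENPN changed by -1.60 (standard error 0.10, adjusted p = 3.57e-05). A further CENPN probe had -1.55 (adjusted p = 0.000551), while the last, at -0.42, was not called (adjusted p = 0.114). C1orf116, the specifically androgen-regulated gene SARG, changed by -1.20 (standard error 0.14, adjusted p = 0.000593). TPD52, a vesicle trafficking protein amplified in prostate cancer, and MPHOSPH9, a centrosome protein, had log2 fold changes of -0.23 and -0.11 and were not called.

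**Figure D3:**
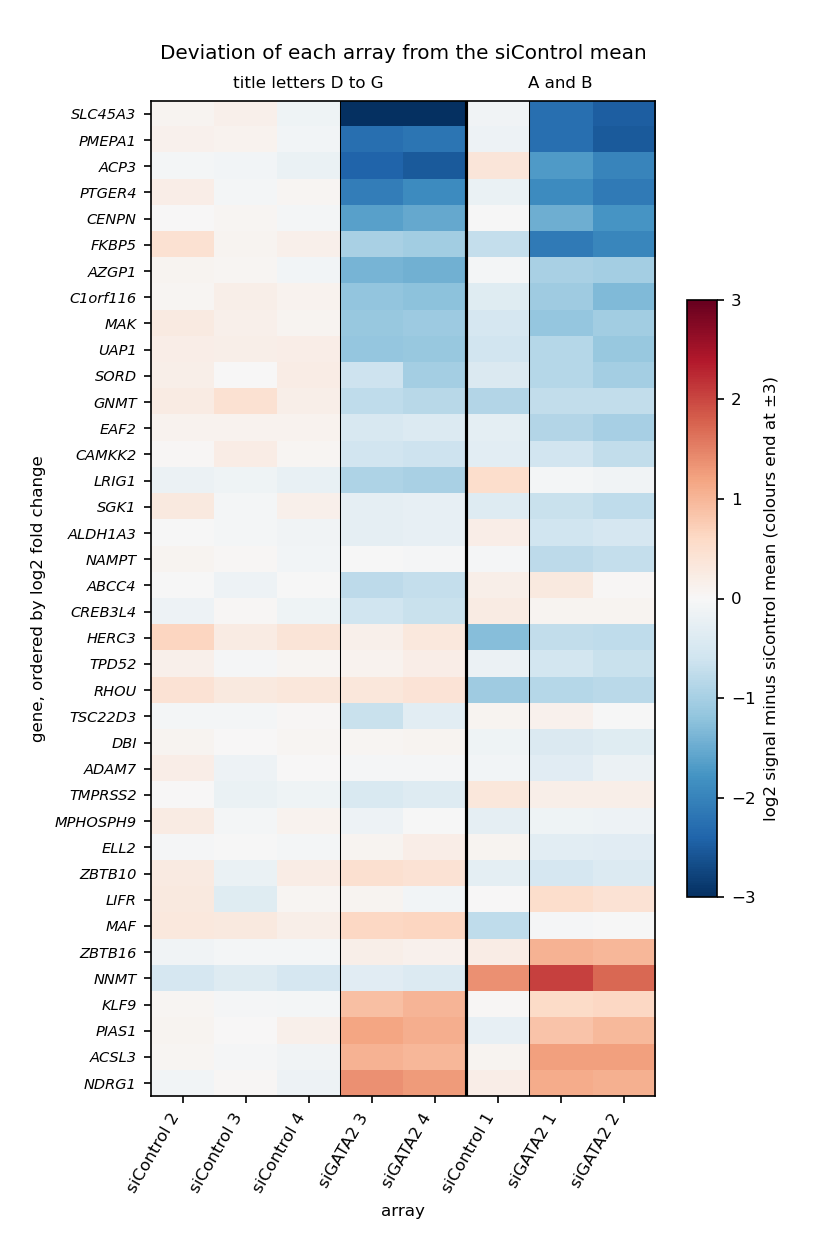
Log2 signal of each androgen-induced gene (rows, ordered by log2 fold change) on each array (columns, ordered by title letter and group) minus the mean of the 4 siControl arrays, with colours ending at 3 either way, which SLC45A3 passes on siGATA2 3 and 4. The genes called lower lie below the siControl mean on all 4 siGATA2 arrays, while NNMT, RHOU and HERC3 change with the title letters in both groups.

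Because GATA2 binds DNA at GATA sites, the RefSeq promoters of the androgen-induced genes (assembly GRCh38.p14, the 250 bases before each annotated start) were searched on both strands for AGATAA or AGATAG and for TGATAA or TGATAG. The table held 53 promoters of 30 of the 39 genes, TMPRSS2, SORD and NDRG1 not among them. A match was found in 5 of the 53 promoters (9.43%), and in 22.3% of all 35116 promoters of the same length. AGAACA, the core of the sites read by the glucocorticoid receptor, was found in 2 of the 53 (3.77%) and in 12.4% of all. Enhancers, where most GATA2 binding is known to lie, are outside this window. The promoters with a GATA match among the genes called lower were those of SLC45A3 (chr1:205680510-205680759), PMEPA1 (chr20:57690687-57690936), FKBP5 (chr6:35728584-35728833) and C1orf116 (chr1:207032757-207033006), all on the minus strand. They are shown to let the letters be read beside the falls of these genes, 5′ to 3′ on the strand of the gene with the match in capitals. It begins at position -193, -234, -81 and -239 from the start in the order given. A match is a run of letters and was not tested for binding.
SLC45A3: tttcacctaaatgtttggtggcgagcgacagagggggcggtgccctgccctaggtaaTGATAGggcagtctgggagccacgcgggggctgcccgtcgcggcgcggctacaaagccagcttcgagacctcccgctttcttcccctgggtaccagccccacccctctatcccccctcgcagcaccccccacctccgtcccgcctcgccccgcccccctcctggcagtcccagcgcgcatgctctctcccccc
PMEPA1: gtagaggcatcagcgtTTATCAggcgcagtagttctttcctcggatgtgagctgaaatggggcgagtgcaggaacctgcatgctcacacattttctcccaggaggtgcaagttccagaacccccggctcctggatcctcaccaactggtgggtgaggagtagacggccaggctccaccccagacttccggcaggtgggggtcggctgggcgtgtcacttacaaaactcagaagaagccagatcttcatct
FKBP5: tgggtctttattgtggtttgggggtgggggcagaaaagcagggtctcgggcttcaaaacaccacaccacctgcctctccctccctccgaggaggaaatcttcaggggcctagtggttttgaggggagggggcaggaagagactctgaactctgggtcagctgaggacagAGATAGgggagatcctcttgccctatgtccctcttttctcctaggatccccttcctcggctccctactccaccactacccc
C1orf116: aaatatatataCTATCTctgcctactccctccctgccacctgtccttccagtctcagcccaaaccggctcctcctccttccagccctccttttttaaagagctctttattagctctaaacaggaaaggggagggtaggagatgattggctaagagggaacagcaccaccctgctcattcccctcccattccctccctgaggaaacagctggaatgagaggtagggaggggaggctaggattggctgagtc

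PMEPA1 has 4 promoters in the table and FKBP5 has 2, and 1 of each holds a match. The fifth match was in SGK1, which was not called. The promoters of PTGER4, ACP3 and CENPN, all at least 3-fold lower, held none of these letters in this window.

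The calls were then set against the division of the arrays by title letter. With both sets as a block, an alternative chosen after the data were seen, all 14 falls and 4 rises remained, and 18 genes were called lower and 6 higher, beside 20% and 24.9% of all genes. The genes added were CREB3L4, LRIG1, SGK1 and TMPRSS2 on the lower side and MAF and ZBTB16 on the higher. Within the D to G set, where 2 siGATA2 arrays faced 3 siControl arrays, 18 were lower and 6 higher, beside 19.5% and 23.9% of all genes, with ALDH1A3 no longer called and ABCC4, CREB3L4, GNMT, LRIG1 and TMPRSS2 added to the falls. The median log2 difference of the androgen-induced genes was -0.30 within the A and B set and -0.35 within the D to G set, against 0.05 and 0.11 for all genes. The signs in the sets were opposite for 8 genes, of which 0 were called over all 8 arrays, namely GNMT, HERC3, ELL2, ZBTB10, TPD52, MPHOSPH9, DBI and LIFR. GNMT was at 0.14 within the A and B set and at -1.08 within the D to G set, and HERC3 was at 0.53 and -0.20. CENPN was at -1.61 and -1.58 in these sets and PMEPA1 at -2.25 and -2.27.

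**Figure D4:**
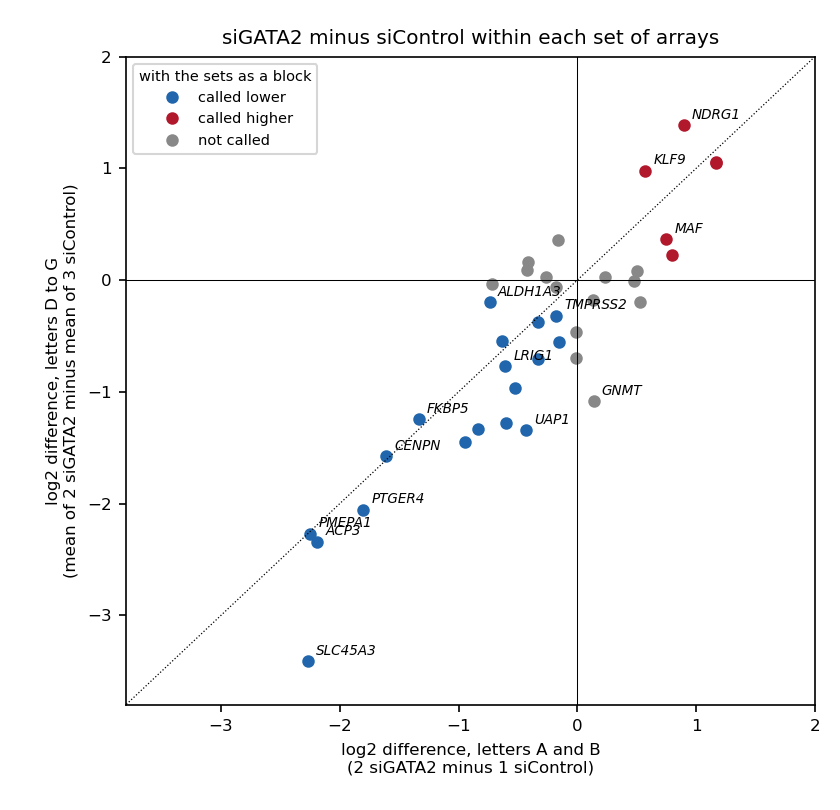
Log2 difference of siGATA2 minus siControl within the arrays with title letters A and B (x axis, 2 siGATA2 against 1 siControl) and D to G (y axis, 2 against 3), one point for each of the 38 androgen-induced genes, coloured by the call with the sets as a block. The dotted line marks equal differences. SLC45A3 lies furthest from 0 in both sets, at -2.27 and -3.41, and 8 genes, GNMT among them, have opposite signs.

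Most falls were called under every alternative run, while no rise was called under spike-in scaling. Of the 14 genes called lower, 9 were called lower in all 25 alternatives, namely SLC45A3, PMEPA1, ACP3, PTGER4, CENPN, AZGP1, C1orf116, UAP1 and SORD. FKBP5, MAK and CAMKK2 were called lower in 24 of 25, EAF2 in 18 and ALDH1A3 in 9. When 7 E1A spike-in probes set the scale of each array, which moved the median of all genes from 0.09 to -0.43 and that of the androgen-induced genes to -0.97, 10 genes were lower and 0 higher at the adjusted p of limma, beside 6.54% and 0.478% of all genes. The spike-in signal of siControl 1 was 11.13 on the log2 scale against 13.45 to 13.83 on the other arrays, and without this array, an alternative also chosen after the data were seen, 14 were lower and 3 higher, beside 14.9% and 6.16% of all genes, with KLF9 and ALDH1A3 being lost and GNMT added.

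**Figure D5:**
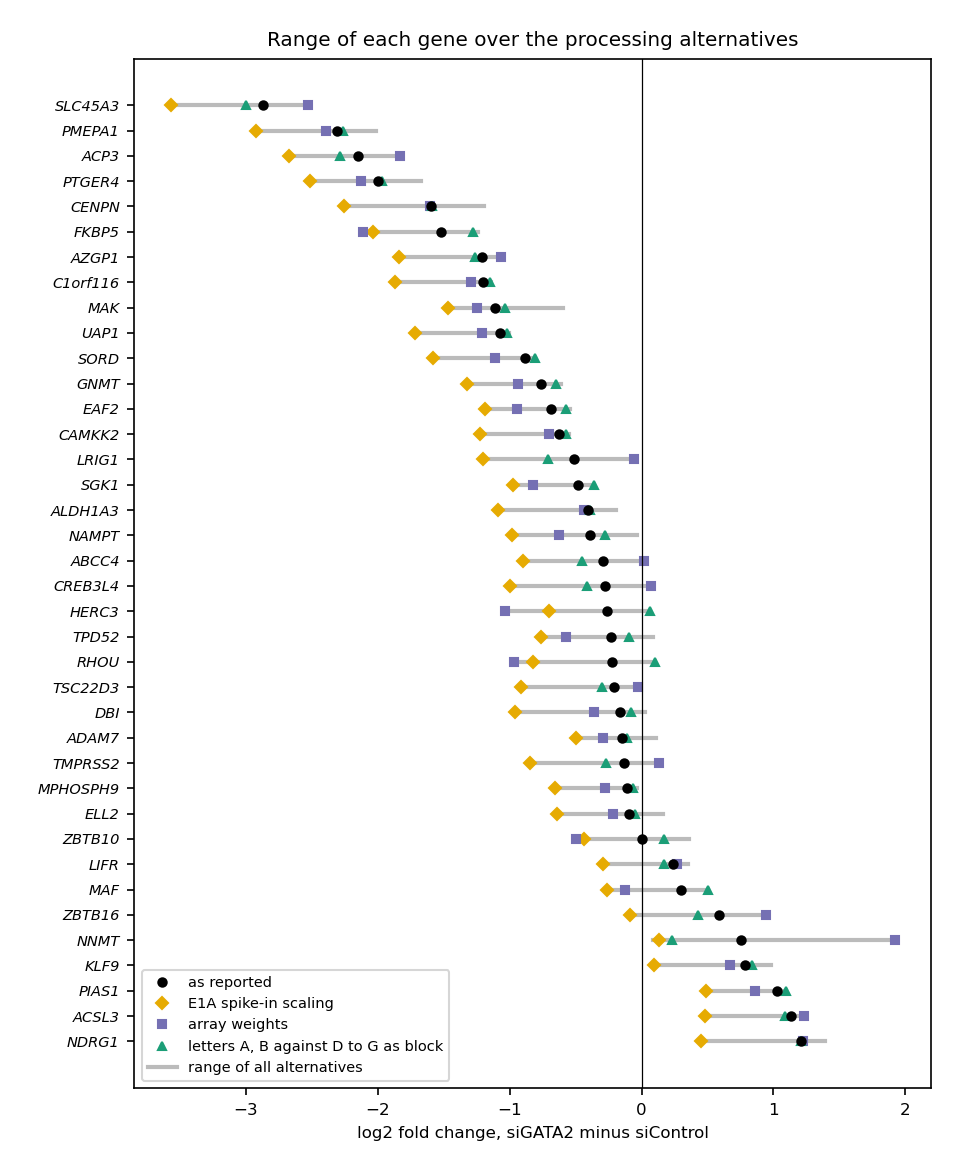
Log2 fold change of siGATA2 minus siControl (x axis) of the 38 androgen-induced genes as reported, under 3 named alternatives, and over all 25 alternatives (grey range). SLC45A3, PMEPA1, ACP3, PTGER4, CENPN, FKBP5, C1orf116, AZGP1 and UAP1 stay below -1 throughout, while KLF9 falls to 0.10 under E1A spike-in scaling.

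A list of 17 pioneer factors, cofactors and chaperones of steroid hormone action was examined beside the induced genes. Of these 17 genes, 4 (23.5%) were lower, 4 (23.5%) were higher and 9 were not called, beside 14.2% lower and 12.3% higher among all genes. FOXA1, the pioneer factor, did not pass the test, its log2 difference of 0.03 having a 95% interval from -0.20 to 0.26.

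The lower cofactors included chromatin proteins. SMARCA4, the ATPase of SWI/SNF remodelling complexes, changed by -1.23 (standard error 0.16, adjusted p = 0.00103), and KDM1A, the histone demethylase LSD1, by -0.88 (adjusted p = 0.00684). The homeobox factor HOXB13 changed by -0.40 (adjusted p = 0.0183) and FKBP4, an HSP90 co-chaperone related to FKBP5, by -0.44 (adjusted p = 0.0279). A further FKBP4 probe changed by -0.98 (adjusted p = 0.00492 from limma). The p160 coactivators were all higher by their brightest probe. NCOA3 changed by 1.60 (standard error 0.11, adjusted p = 4.16e-05), NCOA2 by 0.86 (adjusted p = 0.00152) and NCOA1 by 0.49 (adjusted p = 0.0205). A further NCOA2 probe, at 0.51 (adjusted p = 0.137), and a further NCOA1 probe, at 0.06 (adjusted p = 0.864), were not called. The corepressor NCOR1 was higher at 0.50 (adjusted p = 0.0199). With E1A spike-in scaling NCOA1 and NCOR1 were below 0, at -0.12 and -0.16, and SMARCA4 alone of the 17 was called, beside 6.54% lower and 0.478% higher among all genes. With siControl 1, whose spike-in signal was low, left out of that scaling, 7 of the 17 were called, beside 14.9% lower and 6.16% higher among all genes.

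Of 6 genes listed as repressed by androgen, 5 were found on the array. Of these, 3 (60%) were lower and 0 higher, beside 14.2% lower and 12.3% higher among all genes. UGT2B15, which conjugates androgens to glucuronic acid, was 8.09 to 8.50 on the siGATA2 arrays and 12.08 to 13.20 on the siControl arrays, a log2 fold change of -4.54 (adjusted p = 2.36e-05). Its probe may also read near-identical UGT2B genes, so the gene behind this signal is uncertain. The growth factor receptor MET and the kappa opioid receptor OPRK1 changed by -2.55 (adjusted p = 8.72e-05) and -1.03 (adjusted p = 0.000823). ACKR3, a scavenging chemokine receptor, and CAMK2N1, an inhibitor of CaM kinase, had log2 fold changes of -0.68 and 0.25 and were not called. Within the D to G set ACKR3 was called lower at -1.09 and CAMK2N1 higher at 0.44.

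Among 9 genes induced by glucocorticoid and not on the androgen list, 2 (22.2%) were higher and 0 lower, where 12.3% of all genes were higher. DUSP1, a phosphatase of MAP kinases, was 13.73, 13.83, 13.98 and 14.11 on the siGATA2 arrays and 11.60, 11.52, 11.39 and 11.39 on the siControl arrays, a change of 2.44 (standard error 0.12, adjusted p = 1.79e-05). It was called higher in all 25 alternatives. ANGPTL4, a secreted inhibitor of lipoprotein lipase, changed by 2.07 (standard error 0.60, adjusted p = 0.0375), with siControl 3 at 2.44 far under the other siControl arrays at 5.03 to 5.29. It was called in 15 of 25 alternatives. Without siControl 3 it was 1.39 (adjusted p = 0.000342) and with normexp background correction 0.69. The clock gene PER1 (-0.33), the factors TFCP2L1 (-0.12) and CEBPD (0.05), the EGFR inhibitor ERRFI1 (0.27), the NF-kappa-B inhibitor NFKBIA (0.29), the secreted protein CRISPLD2 (0.30) and the apoptosis inhibitor BIRC3 (0.78) were not called at these log2 fold changes. With the sets as a block ERRFI1 (0.28), NFKBIA (0.37), CRISPLD2 (0.48) and BIRC3 (1.03) were called higher, and within the D to G set ERRFI1 (0.25), NFKBIA (0.51) and BIRC3 (1.52) were called higher and PER1 (-0.66) lower. The glucocorticoid receptor gene NR3C1 was not called (log2 fold change 0.37, adjusted p = 0.231), and it passed the background threshold on 2 of 4 siControl arrays. CRISPLD2 also passed that threshold on 2 of 4 siControl arrays, and TFCP2L1 on 2 siGATA2 arrays and 1 siControl array.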

How the data were processed

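LNCaP cells of 2 groups, siGATA2 and siControl, with 4 arrays each, were grouped by label. For each array the authors deposited spot intensity as written by Agilent Feature Extraction 11.0.1.1, whose processed signal is linear and background-corrected. The log2 values of the deposited matrix served as an alternative. The array design named in the files differs from that in the study's methods. From the deposited intensity, unflagged spots were averaged per probe on the log2 scale and quantile-normalized in limma 3.58.1 (R 4.3.3). Probes were named by RefSeq accession (26364 of 42405), and 1914 without annotation or those with a mean under 3 were removed, leaving 35514 probes. The brightest probe stood for each of 28850 genes, tested with lmFit, eBayes and Benjamini-Hochberg adjustment, with thresholds of 0.05 and 2-fold.

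Alternatives were 75th percentile and E1A scaling, normexp with an offset of 50, other filters, the deposited matrix, a t-test as in the methods, blocks, array weights and left-out arrays. The test was checked on simulated data with independent arrays, a check that does not cover the title letter sets. All 39 androgen-induced genes are named, with array values for FKBP5, TMPRSS2 and the genes with the largest falls and rises; values on every array for a few further genes were added after they were seen. Of the cofactor list FOXA1, HOXB13, GATA2 and every called gene were named, as was every gene of the androgen-repressed and glucocorticoid lists, and NR3C1 was added after its values were seen. Members, lists and rule were chosen with earlier results of these data known. Arrays have no read depth, and their number limits the precision. Some genes of the cofactor and marker lists are not reported here. There was 1 slide, so no slide block could be fitted.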

Additional observations from a re-analysis of the deposited data

Results flagged for a closer look

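In groups of 4 values, an array was noted when its gap to the nearest other array, as a share of the range of the group, exceeded the critical value of Dixon's test. Of 138 groups examined over 69 genes, 13 passed, where chance gives about 1 in 20, and 10 of the 13 were siControl 1. The groups share arrays and are not independent. No explanation was tested.

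Among the androgen-induced genes, siControl 1 lay low for EAF2, MAF, RHOU and UAP1 and high for LRIG1 and NNMT. The log2 signal of EAF2 was 8.90 on siControl 1 and 9.29 to 9.29 on the remaining siControl arrays, a gap of 0.990 of the range. MAF was at 8.77 on siControl 1 beside 9.71 to 9.85 on the others of its group, with a gap of 0.868. For RHOU the gap was 0.909, from 10.18 on siControl 1 to 11.54 to 11.67 on the remaining siControl arrays. The log2 signal of LRIG1 was 13.96 on siControl 1 and 13.21 to 13.31 on the remaining siControl arrays, a gap of 0.866 of the range. UAP1 was at 12.14 on siControl 1 beside 12.87 to 12.90 on the others of its group, with a gap of 0.954. For NNMT the gap was 0.938, from 11.62 on siControl 1 to 9.74 to 9.86 on the remaining siControl arrays. The log2 signal of UAP1 was 11.84 on siGATA2 1 and 11.54 to 11.57 on the remaining siGATA2 arrays, a gap of 0.909 of the range. MPHOSPH9 was at 9.24 on siGATA2 4 beside 9.10 to 9.12 on the others of its group, with a gap of 0.859.

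Outside the androgen-induced genes, siControl 1 lay high for ACKR3 and CAMK2N1 and low for PER1 and TFCP2L1, and siControl 3 lay low for ANGPTL4. The signal of ACKR3 was 16.20 on siControl 1 and 15.11 to 15.23 on the remaining siControl arrays (gap 0.888 of the range). CAMK2N1 stood at 15.63 on siControl 1 against 15.14 to 15.18, a gap of 0.930 of the range. The signal of PER1 was 9.90 on siControl 1 and 10.31 to 10.32 on the remaining siControl arrays (gap 0.969 of the range). TFCP2L1 stood at 2.24 on siControl 1 against 3.88 to 4.18, a gap of 0.849 of the range. The signal of ANGPTL4 was 2.44 on siControl 3 and 5.03 to 5.29 on the remaining siControl arrays (gap 0.910 of the range).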

How the results depend on the processing

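The 14 androgen-induced genes called lower became 24 with array weights, which weight quieter arrays more and with which 26.1% of all genes were lower in place of 14.2%, and 12 to 15 with an array left out. The weights were 1.57 and 2.07 for siGATA2 1 and 2, 0.37 for siGATA2 3 and 4, 3.70 and 4.22 for siControl 2 and 4, 0.58 for siControl 3 and 0.25 for siControl 1. The title letters thus ran largely with the groups in the weighted fit. It added RHOU and HERC3 to the falls and NNMT to the rises, genes that change with the title letters. The 4 called higher became 0 with E1A spike-in scaling and stayed 4 with any array left out. The 3 higher by at least 2-fold became 0 with E1A scaling, with or without siControl 1, and were 2 to 3 with an array left out, while the 10 lower by at least 2-fold were 10 to 12. With 75th percentile scaling or normexp background correction 9 were lower by at least 2-fold. MAK was at -0.59 with normexp background correction. ZBTB10, at 0.00, was called lower at -0.49 with array weights (adjusted p = 0.0484 from limma). NCOA1 and NCOR1, called higher, were at -0.12 and -0.16 with E1A scaling, and changes of sign in genes never called were not counted. With slide row as a block EAF2, FKBP5 and ALDH1A3 were lost, leaving 11 lower, beside 10.4% of all genes. Row 1 of the slide held siGATA2 1 to 3 and siControl 4, and row 2 held siGATA2 4 and siControl 1 to 3. Row thus ran largely with group in the fits without this block, and the block has less precision. The methods' t-test with Benjamini-Hochberg adjustment gave 14 lower and 4 higher, and 10 and 3 by at least 2-fold.

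The 8 called cofactors became 1 with E1A scaling, 5 with slide row as a block, 5 with siControl 2 and 4 only, and 5 to 8 with an array left out, with 5 without siGATA2 3 or siControl 4. The cofactors called were 12 with array weights, 11 with the sets as a block, and 10 within the D to G set or with 75th percentile scaling. Of all genes 26.1% were lower and 27.9% higher with array weights, and 20% and 24.9% with the sets as a block. The 3 androgen-repressed genes called became 5 within the D to G set and were 3 to 4 with an array left out. The 2 glucocorticoid-induced genes called became 1 with E1A scaling or slide row as a block, 6 with the sets as a block and 5 within the D to G set, and were 1 to 2 with an array left out, DUSP1 alone being called when any siGATA2 array, siControl 2 or siControl 4 was left out. With E1A scaling and siControl 1 left out, 7 cofactors and 2 glucocorticoid-induced genes were called. Apart from the array omitted, the cause was not tested.

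The deviations of same-numbered arrays had correlations of 0.54, -0.31, 0.17 and 0.22, and since that of number 2 was below 0 the numbers were not taken to pair the samples. With the replicate block 13 androgen-induced genes were lower and 4 higher, ALDH1A3 being lost. The blocks and subsets by title letter and E1A scaling without siControl 1 were chosen after the data were seen. Signal over background limits HPGD, ADAM7, ANGPTL4, TFCP2L1, CRISPLD2, NCOA2, NR3C1 and several of the cell type markers.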

Other observations

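Some androgen-induced genes differed more between the title letters than between the groups. NNMT was higher on the A and B arrays than on the D to G arrays by 2.26 on the log2 scale among siGATA2 arrays and by 1.84 among siControl arrays. RHOU was lower on the A and B arrays, with differences of -1.22 and -1.43, and HERC3 with differences of -0.99 and -1.71. In siControl the A and B set is the single array siControl 1, so these differences carry no test. FKBP5 also differed, by -1.03 and -0.94, but its groups differed within each set.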
